A study of Mus musculus with 35 samples.

Results

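The 10 genes Cd3d, Cd3e, Cd3g, Cd247, Cd8a, Cd8b1, Lck, Zap70, Lat and Cd5 encode the signalling chains of the T cell receptor complex, the CD8 co-receptor, the first kinases and adaptor of the receptor pathway and a surface brake on it. They were chosen by symbol, 10 of the 22865 genes counted, and their levels were followed as CPM, counts scaled to a common library total, over 32 bulk libraries of sorted mouse CD8 T cells. All mice were C57BL/6, aged 13 months. The libraries fell into 6 groups, namely liver CXCR6pos cells of mice on the diet labelled CD-HFD (n = 5) and on the diet labelled ND (n = 6), liver CXCR6neg cells under CD-HFD (n = 6) and ND (n = 4), and spleen CX3CR1neg cells under CD-HFD (n = 6) and ND (n = 5). CD-HFD is a choline-deficient high-fat diet that brings about fatty liver inflammation in mice, and ND is the normal diet. The gates differ between the organs, so that organ and gate cannot be told apart in a comparison of liver with spleen. Nothing in the labels ties each replicate to an animal of its own, and the p-values below therefore cover the variation among these libraries only, part of which may be technical.

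The T cell receptor itself has no signalling tail. Its alpha and beta chains bind peptide on a major histocompatibility molecule, and the signal is passed on by the dimers of CD3 gamma with epsilon, CD3 delta with epsilon, and the zeta pair encoded by Cd247, whose tails carry tyrosine motifs. The CD8 alpha and beta chains bind class I molecules and bring the kinase LCK to the complex. LCK phosphorylates the motifs, ZAP70 docks on them and phosphorylates the adaptor LAT, and CD5 is a surface receptor that dampens the signal and is set by its strength in developing T cells.

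Total counts per library ran between 15633 and 978896 with a median of 308123, and the 10 genes together took between 0.815% and 1.35% of them. Precision was lowest in ND CXCR6pos replicate 1, where 1 count was worth 49.2 CPM, and in CD-HFD CXCR6pos replicate 5, where it was worth 17.7 CPM. The gate gene Cxcr6 was at 573 to 867 CPM in CD-HFD CXCR6pos, 201 to 812 CPM in ND CXCR6pos, 52.9 to 124 CPM in CD-HFD CXCR6neg, 40.0 to 450 CPM in ND CXCR6neg, 126 to 264 CPM in CD-HFD spleen and 169 to 257 CPM in ND spleen. The library labelled ND CXCR6pos replicate 6 held less Cxcr6 (201 CPM) than the library labelled ND CXCR6neg replicate 4 (450 CPM), so those 2 libraries went against their labels and results that rest on ND liver cells are also given without them. Both CD8 genes and all CD3 genes had counts in every library, which were labelled as CD8 T cells.

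The CD3 and CD8 genes lie next to each other. On mouse chromosome 9 (GRCm38, GENCODE M21 gene bounds) Cd3g, chr9:44969572-44980431 on the minus strand, and Cd3d, chr9:44981786-44987339 on the plus strand, start 1355 bp apart and are read away from each other, and Cd3e follows at chr9:44998740-45009627 on the minus strand. Cd8b1, chr6:71322788-71337494, and Cd8a, chr6:71373427-71379173, lie 35933 bp apart on the plus strand of chromosome 6. The others stand alone, with Cd247 at chr1:165788681-165877277 and Zap70 at chr1:36761798-36782818 on the plus strand, and Lck at chr4:129548344-129573641, Lat at chr7:126363824-126369570 and Cd5 at chr19:10717116-10739002 on the minus strand. All are protein-coding. The 3′ end of Cd247 lies within Pou2f1, which is read from the other strand and had 154 counts in all libraries, and since the use of strand in counting is not given in the sources used here, the Cd247 counts are uncertain to that extent. The predicted genes Gm48719 and Gm48720 overlap Cd3e but not its 3′ end, where these libraries take their reads.

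The promoter windows of the 3 neighbouring CD3 genes and of Cd8a are shown because Cd3e and Cd3g moved together across the groups while Cd3d, which starts beside Cd3g, did not, and because Cd8a moved without its neighbour Cd8b1. Each window runs 5′ to 3′ over 250 bases before and 50 bases after the gene's start, from RefSeq on GRCm38.p6, at chr9:45009562-45009861 (minus strand) for Cd3e, chr9:44980382-44980681 (minus) for Cd3g, chr9:44981536-44981835 (plus) for Cd3d and chr6:71373177-71373476 (plus) for Cd8a. Capitals mark matches on either strand to the E-box CANNTG, and to the ETS motif ACTTCC, found by their letters alone.
Cd3e: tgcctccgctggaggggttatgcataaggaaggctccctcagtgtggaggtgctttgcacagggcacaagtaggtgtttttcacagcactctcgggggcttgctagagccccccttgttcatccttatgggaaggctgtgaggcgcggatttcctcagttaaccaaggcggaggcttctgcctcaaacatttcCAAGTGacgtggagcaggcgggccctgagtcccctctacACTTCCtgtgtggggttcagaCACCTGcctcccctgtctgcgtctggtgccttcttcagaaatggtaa
Cd3g: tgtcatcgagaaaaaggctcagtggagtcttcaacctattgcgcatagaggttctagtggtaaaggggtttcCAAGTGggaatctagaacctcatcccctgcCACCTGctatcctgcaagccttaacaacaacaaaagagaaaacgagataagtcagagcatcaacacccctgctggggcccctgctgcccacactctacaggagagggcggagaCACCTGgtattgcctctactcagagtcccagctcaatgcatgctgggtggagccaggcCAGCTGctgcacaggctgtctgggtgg
Cd3d: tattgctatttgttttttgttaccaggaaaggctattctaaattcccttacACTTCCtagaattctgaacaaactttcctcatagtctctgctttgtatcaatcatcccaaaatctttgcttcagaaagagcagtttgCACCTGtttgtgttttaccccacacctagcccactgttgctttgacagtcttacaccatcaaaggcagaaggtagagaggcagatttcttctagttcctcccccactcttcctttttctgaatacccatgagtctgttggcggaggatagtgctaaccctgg
Cd8a: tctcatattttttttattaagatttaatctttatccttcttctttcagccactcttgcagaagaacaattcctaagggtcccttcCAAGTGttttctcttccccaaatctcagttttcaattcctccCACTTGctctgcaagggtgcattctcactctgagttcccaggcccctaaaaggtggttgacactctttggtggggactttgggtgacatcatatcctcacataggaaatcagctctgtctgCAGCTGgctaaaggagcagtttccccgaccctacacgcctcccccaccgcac
The E-box had 4 matches in the Cd3g window, 3 in that of Cd8a, 2 in that of Cd3e and 1 in that of Cd3d, and the ETS motif had 1 match in those of Cd3e and Cd3d and no match in those of Cd3g and Cd8a. Of the 10 genes 9 had entries, with 12 windows, and Cd8b1 had none. An E-box was in 12 of the 12 windows and in 72.3% of the 32851 windows of all genes. The ETS motif was in 7 of the 12 and in 23.8% of all windows. RUNX (TGTGGT) was in 3 and in 16.8% of all windows, TCF/LEF (CTTTGA) in 3 and 16%, NFAT (GGAAAA) in 1 and 23.4%, and SP (GGGCGG) in 2 and 35.7%, each searched on both strands. None of the 6 motifs searched was in the windows of both Cd3e and Cd3g and absent from that of Cd3d, which says only that these letters are not in these windows.

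Levels are given as CPM after scaling by the trimmed mean of M-values (TMM), and are compared only within a gene, since they are not per length. The TMM factor was 1.371 in ND CXCR6pos replicate 1, the shallowest library, and 0.944 to 1.041 in the others. A higher factor gives lower scaled values, so the low values of replicate 1 below come partly from this scaling. The CD3 gamma and epsilon genes stood highest in liver CXCR6pos cells of CD-HFD mice. In CXCR6pos libraries Cd3e was at 1890.1, 2076, 1967, 1806 and 1715 CPM under CD-HFD, against 739 at the lowest, 1166 at the median and 1278 at the highest under ND. In CXCR6neg libraries Cd3e was at 989 at the lowest, 1075 at the median and 1182 at the highest CPM under CD-HFD, against 1067, 1102, 1125 and 1116 under ND. All 5 CD-HFD CXCR6pos libraries lay above every other library of the study for Cd3e, whose lowest value there was 1715 CPM, while of the ND CXCR6pos libraries 3 lay above the CXCR6neg ones, 2 within their range and replicate 1, the shallowest, below it. In spleen Cd3e was at 857 at the lowest, 947 at the median and 1000.5 at the highest CPM under CD-HFD, against 893, 886, 975, 901 and 821 under ND. The spleen values overlapped between the diets and lay below nearly all of the liver values.

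Cd3g was likewise highest in CD-HFD CXCR6pos cells and lowest in spleen. In CXCR6pos libraries it was at 1866.5, 2129.8, 2284, 2372 and 2653 CPM under CD-HFD, against 739 at the lowest, 1369 at the median and 1710.4 at the highest under ND. In CXCR6neg libraries it was at 1086 at the lowest, 1123 at the median and 1192 at the highest CPM under CD-HFD, against 840.4, 1156, 1219 and 1148 under ND. Every CD-HFD CXCR6pos library was again above all others, and of the ND CXCR6pos libraries 4 were above the CXCR6neg range, replicate 6 was within it and replicate 1 below it. In spleen Cd3g was at 1005 at the lowest, 1067 at the median and 1187 at the highest CPM under CD-HFD, against 1016, 1002, 989.6, 1125 and 871 under ND, and these overlapped with each other and with CXCR6neg cells.

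Cd3d, which encodes the delta chain that pairs with epsilon, was nearly level over the same libraries. Its means were 1513 ± 83.6 CPM in CD-HFD CXCR6pos and 1379 ± 164 in ND CXCR6pos, 1385 ± 54.2 in CD-HFD CXCR6neg and 1338 ± 146 in ND CXCR6neg, and 1487 ± 70.1 in CD-HFD spleen and 1514 ± 62 in ND spleen (SD, n as above). The highest mean was 1.13 times the lowest for Cd3d, against 2.11 times for Cd3e and 2.26 times for Cd3g. Cd247, the zeta chain, had means of 354 ± 46.2 and 327 ± 74.9 CPM in CXCR6pos cells under CD-HFD and ND, 325 ± 63.5 and 298 ± 56.7 CPM in CXCR6neg cells under CD-HFD and ND, and 291 ± 63.2 and 252 ± 20 CPM in spleen under CD-HFD and ND. The means of Cd247 fell in that order, and each pair of neighbours in it differed by less than the larger of their SDs.

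**Figure D1:**
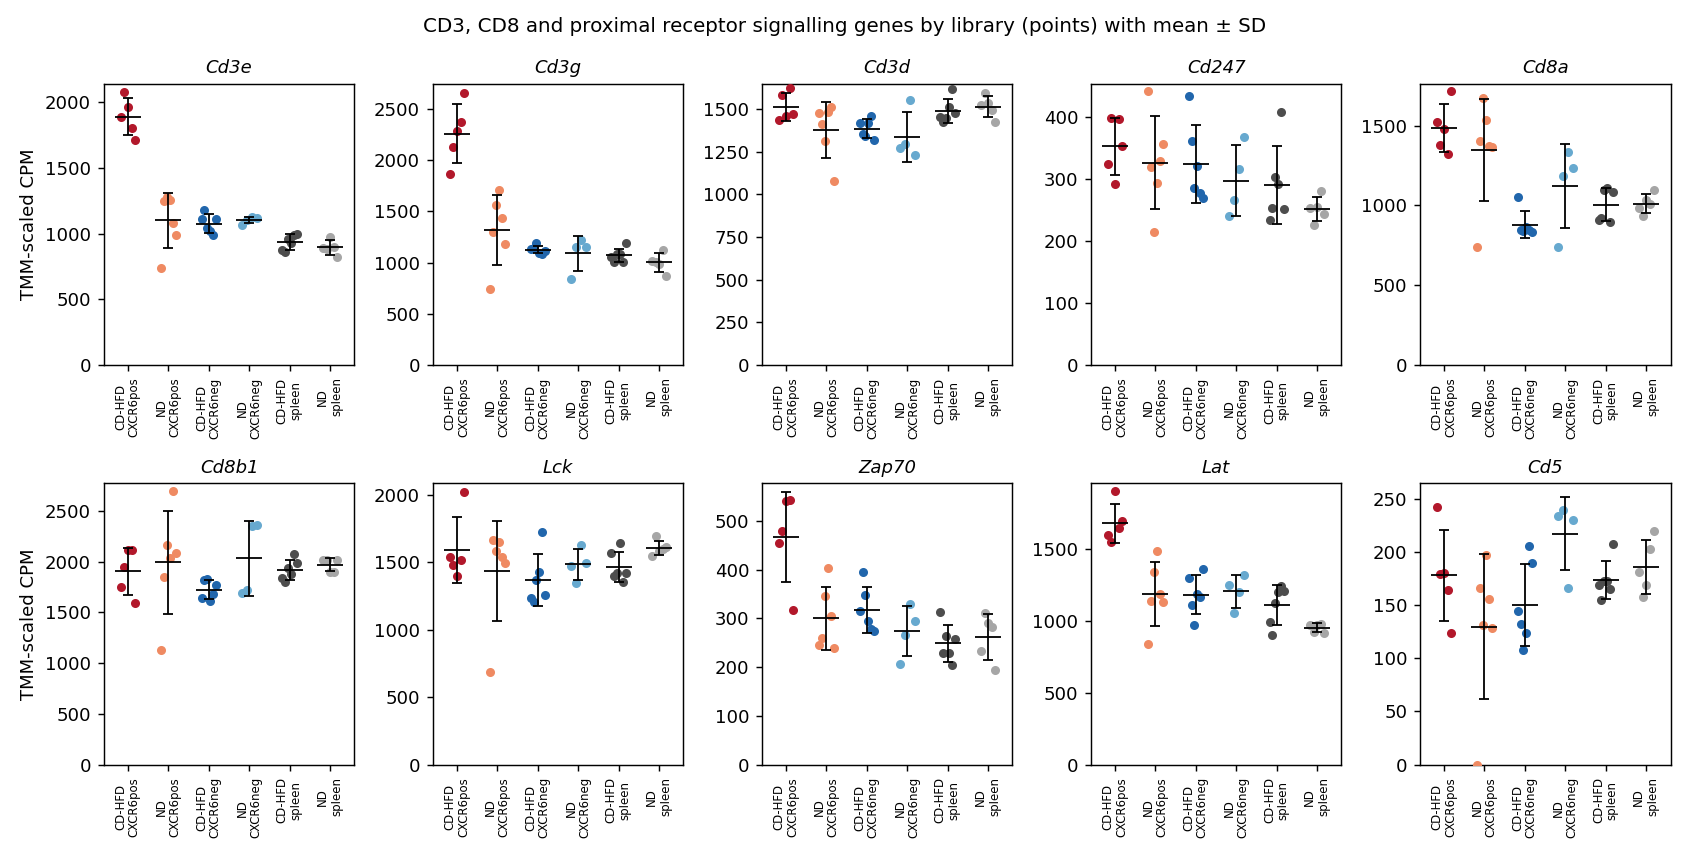
TMM-scaled CPM (vertical axes, linear, starting at 0) of the 10 genes in each library (points), with the mean and SD of each group (bars). Cd3e and Cd3g of the 5 CD-HFD CXCR6pos libraries sit above all other libraries, at 1715 CPM or more and 1866.5 CPM or more, while Cd3d, Cd8b1 and Lck overlap in each of the 9 comparisons.

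Of the 2 CD8 chains, Cd8a was higher in CXCR6pos cells and Cd8b1 was nearly level. In CXCR6pos libraries Cd8a was at 1524, 1380.5, 1481.5, 1324 and 1715 CPM under CD-HFD, against 739 at the lowest, 1389 at the median and 1677 at the highest under ND. In CXCR6neg libraries it was at 836 at the lowest, 846 at the median and 1050.4 at the highest CPM under CD-HFD, against 740.4, 1183, 1333 and 1233 under ND. The CXCR6pos values of both diets were above those of CD-HFD CXCR6neg cells with the exception of ND CXCR6pos replicate 1 at 739 CPM, they overlapped with those of ND CXCR6neg cells, and CD-HFD CXCR6neg cells had the lowest mean of all 6 groups. In spleen Cd8a averaged 1004 ± 103 CPM under CD-HFD and 1012 ± 59.7 CPM under ND. Cd8b1 averaged 1903 ± 229.6 and 1991 ± 507 CPM in CXCR6pos cells under CD-HFD and ND, 1724 ± 91.2 and 2031 ± 373 CPM in CXCR6neg cells under CD-HFD and ND, and 1917 ± 103 and 1968 ± 64.9 CPM in spleen under CD-HFD and ND. The groups overlapped for Cd8b1 in each of the 9 comparisons made below, and its highest mean was 1.18 times the lowest.

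Of the kinases, Zap70 had its highest mean in CD-HFD CXCR6pos cells, while the highest mean of Lck, in ND spleen, was 1.17 times its lowest. In CXCR6pos libraries Zap70 was at 455, 479, 542, 542 and 318 CPM under CD-HFD, against 239 at the lowest, 282 at the median and 404 at the highest under ND. In CXCR6neg libraries it was at 275 at the lowest, 305 at the median and 395 at the highest CPM under CD-HFD, against 207, 266, 329 and 294 under ND. The CD-HFD CXCR6pos libraries were the highest apart from replicate 5, a library of low depth, which fell within the other groups. In spleen Zap70 averaged 249 ± 37.9 CPM under CD-HFD and 262 ± 47.5 CPM under ND. Lck averaged 1588.5 ± 245 and 1436 ± 372 CPM in CXCR6pos cells under CD-HFD and ND, 1369 ± 194 and 1483 ± 114 CPM in CXCR6neg cells under CD-HFD and ND, and 1466.5 ± 111 and 1605 ± 53.6 CPM in spleen under CD-HFD and ND, and its groups overlapped in each of those comparisons. The highest single value of Lck, 2016 CPM, was in CD-HFD CXCR6pos replicate 5.

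The adaptor gene Lat followed Cd3e. In CXCR6pos libraries it was at 1601, 1549, 1905, 1650.4 and 1698 CPM under CD-HFD, against 837 at the lowest, 1166.5 at the median and 1489.9 at the highest under ND. In CXCR6neg libraries it was at 970.3 at the lowest, 1179.9 at the median and 1359.6 at the highest CPM under CD-HFD, against 1247, 1052, 1202 and 1321 under ND. Every CD-HFD CXCR6pos library was above every library of the other 5 groups. In spleen Lat was at 899.7 at the lowest, 1161 at the median and 1243 at the highest CPM under CD-HFD, against 974, 924, 975, 976 and 915 under ND, where the ND values were tightly grouped and the CD-HFD values spread on both sides of them. Cd5 had the fewest counts of the set. In CXCR6pos libraries it was at 242, 179, 181, 164 and 124 CPM under CD-HFD, against 0 at the lowest, 143 at the median and 197 at the highest under ND, the 0 being replicate 1, where 1 count was worth 49.2 CPM and a count of 0 allows up to 3 counts or 148 CPM, a floor that covers counting error only. In CXCR6neg libraries Cd5 was at 108 at the lowest, 138 at the median and 205 at the highest CPM under CD-HFD, against 233, 239, 166 and 230.2 under ND, and spleen averaged 174 ± 17.8 CPM under CD-HFD and 186 ± 25.3 CPM under ND.

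Within the liver under CD-HFD, CXCR6pos cells had more RNA of the CD3 epsilon and gamma genes, of Cd8a, of Zap70 and of Lat than CXCR6neg cells. Of the 10 genes 5 rose and none fell, beside 4.76% of the 6174 genes tested that rose and 6.38% that fell, 11.1% in all. By edgeR's quasi-likelihood test with Benjamini-Hochberg adjustment over all genes tested, the log2 fold change was 0.99 ± 0.10 (SE) for Cd3g, a level 1.99 times as high, and 0.81 ± 0.10 for Cd3e, with adjusted p-values of 2.14e-13 and 6.53e-11. For the co-receptor, Cd8a rose by 0.73 ± 0.11 (adjusted p = 1.53e-07). For the kinase and the adaptor, Zap70 rose by 0.61 ± 0.13 (adjusted p = 0.000418) and Lat by 0.49 ± 0.10 (adjusted p = 0.000149). For 4 of the 5, all but Zap70, each CXCR6pos library was above each CXCR6neg library, and all 5 calls held in each of the 18 alternative settings. The share of all genes tested that separate in this way is not given for any comparison. Such separation therefore only describes the genes named. In bulk samples, fewer cells of a type and less RNA per cell cannot be told apart, here and in every comparison that follows.

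The other chains and kinase did not pass in the same comparison. The log2 difference was 0.14 for Cd3d (95% interval -0.05 to 0.33, adjusted p = 0.452), 0.13 for Cd247 (-0.14 to 0.40, adjusted p = 0.678), 0.16 for Cd8b1 (-0.05 to 0.36, adjusted p = 0.408), 0.21 for Lck (0.00 to 0.41, adjusted p = 0.232) and 0.30 for Cd5 (-0.04 to 0.64, adjusted p = 0.332). The intervals of Cd3d and Cd8b1 end below the lower ends of those of Cd3e, 0.62 to 1.00, and Cd8a, 0.52 to 0.95. The median log2 fold change of the 10 genes was 0.40, against -0.00 over all genes tested.

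Under ND the same contrast gave no call among the 10 genes, beside 0.0324% of all genes tested, 2 genes. At an unadjusted p below 0.05 it gave 501 genes, and DESeq2 called 0. The log2 fold changes were 0.34 ± 0.11 for Cd3g (adjusted p = 0.27), 0.32 ± 0.11 for Cd8a (adjusted p = 0.332), -0.49 ± 0.17 for Cd5 (adjusted p = 0.307), and between 0.02 and 0.13 for the other 7. The fit weights libraries by depth, so that Cd3e, Cd8b1, Lck and Lat, with fitted log2 values between 0.03 and 0.05, had slightly lower plain means in CXCR6pos than in CXCR6neg cells. Without the 2 ND libraries that went against their gate, an alternative chosen after seeing the data, Cd3g passed with a log2 fold change of 0.453 (adjusted p = 0.0348) and the count of all genes went to 90. With a block for the replicate number Cd3g passed at 0.454 (adjusted p = 0.0475) and the count was 75. Whether the numbers pair libraries of the same animal is not known from the labels.

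Whether the CXCR6 contrast depends on diet was tested as an interaction in the same fit, and 2 of the 10 genes passed, both higher under CD-HFD, beside 0.437% of all genes tested that were higher and 1.44% in either direction. The difference between the CD-HFD and the ND log2 fold changes was 0.76 ± 0.14 for Cd3e (adjusted p = 0.000279) and 0.65 ± 0.15 for Cd3g (adjusted p = 0.0064). For Cd3g it did not pass without the 2 libraries against their gate, at 0.534 (adjusted p = 0.0795), nor with the block, at 0.514 (adjusted p = 0.0735). For Cd3e it was 0.704 without the 2 libraries (adjusted p = 0.00257). The difference was 0.79 ± 0.24 for Cd5 (adjusted p = 0.0757), 0.47 ± 0.20 for Zap70 (0.288), 0.46 ± 0.15 for Lat (0.103) and 0.41 ± 0.16 for Cd8a (0.218), none of which passed. Cd5 passed when ND CXCR6pos replicate 4 (0.885, adjusted p = 0.0303), ND CXCR6neg replicate 4 (0.950, 0.0321) or CD-HFD CXCR6neg replicate 6 (0.901, 0.0411) was left out, and Lat without ND CXCR6pos replicate 4 (0.523, 0.0413).

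**Figure D2:**
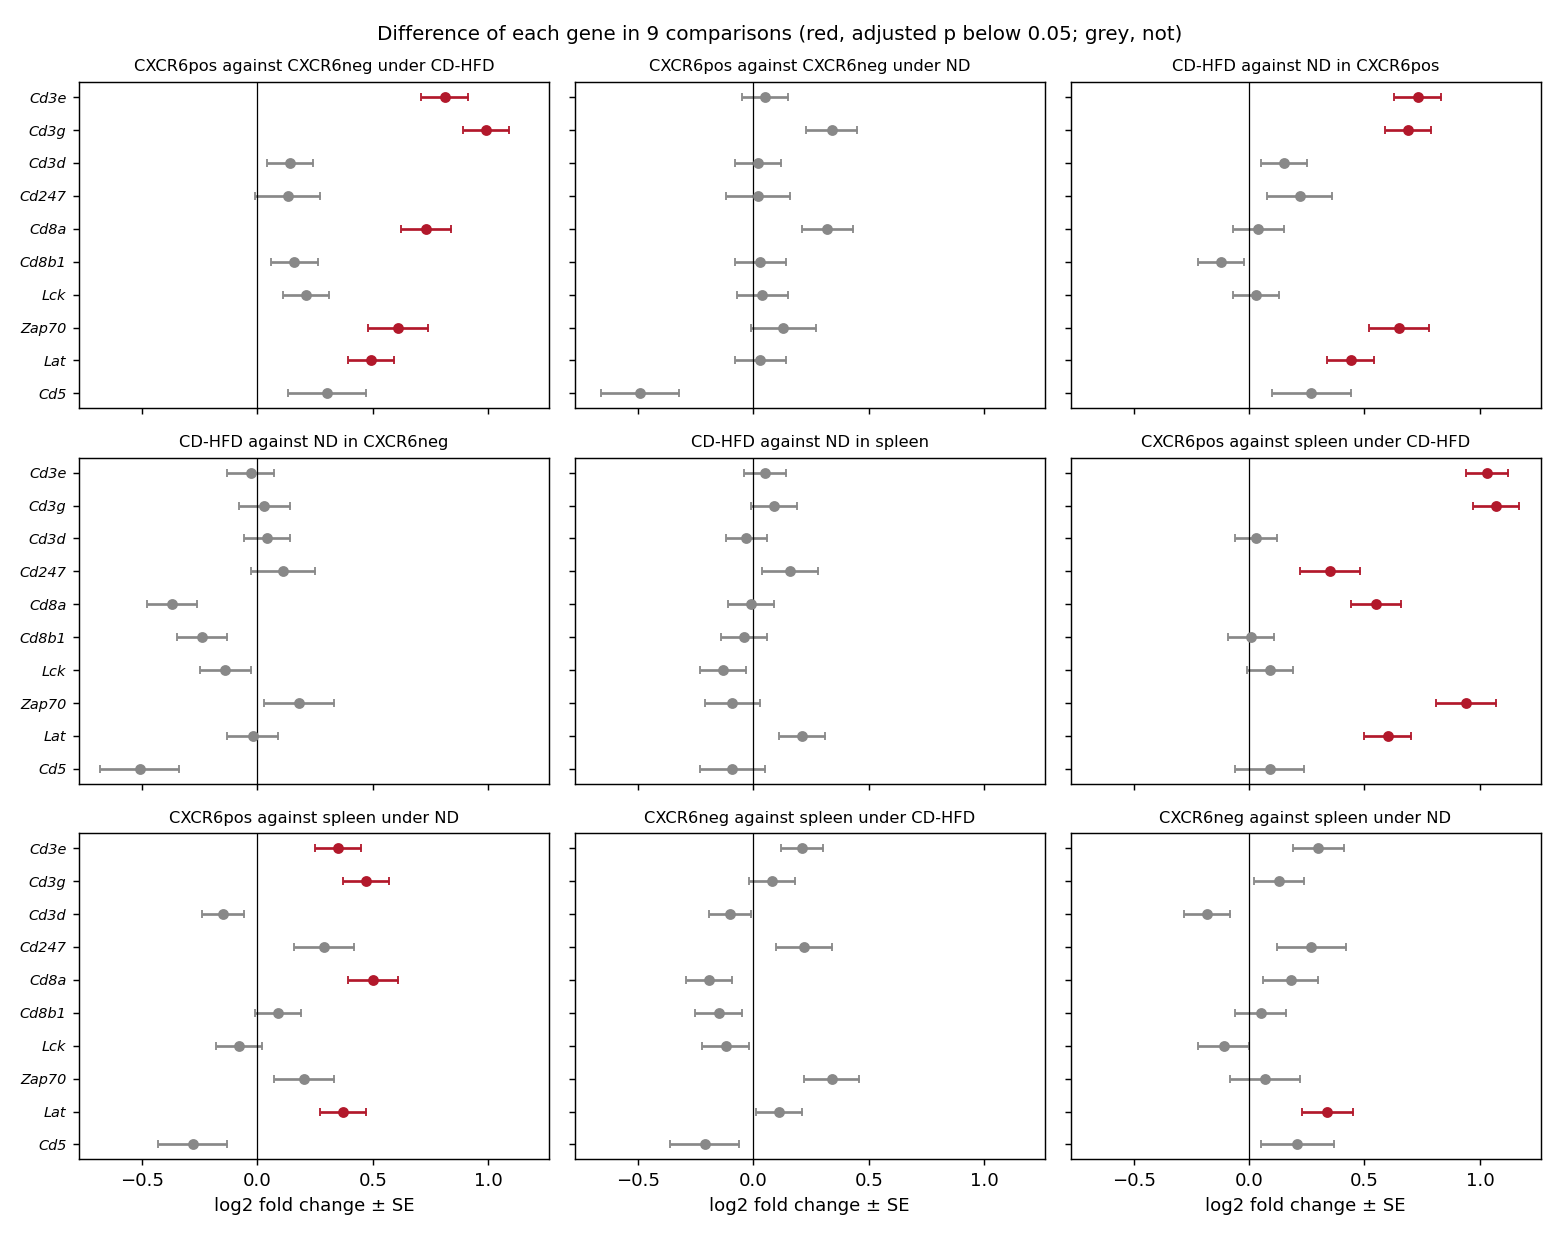
Log2 fold change with its standard error (horizontal axes) of the 10 genes (rows) in 9 comparisons (panels, named with the group on top of the fold change first), in red where the adjusted p was below 0.05. Cd3e, Cd3g, Zap70 and Lat are red in each panel of CD-HFD CXCR6pos cells and no gene is red in the panels of diet within CXCR6neg cells or spleen.

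In CXCR6pos cells, CD-HFD went with higher Cd3e, Cd3g, Zap70 and Lat than ND, and with no difference in the CD8 genes that passed the test. Of the 10 genes 4 rose and none fell, beside 4.84% of genes tested that rose and 6.45% that fell, 11.3% in all. The log2 fold change was 0.73 ± 0.10 for Cd3e (adjusted p = 2.82e-09), 0.69 ± 0.10 for Cd3g (1.36e-07), 0.65 ± 0.13 for Zap70 (0.000106) and 0.44 ± 0.10 for Lat (0.000869). Each CD-HFD library was above each ND library for Cd3e, Cd3g and Lat, and all 4 calls held in each of 19 alternatives. Without the 2 ND libraries against their gate the log2 fold changes were 0.689 for Cd3e (adjusted p = 6.64e-08), 0.632 for Cd3g (1.78e-06), 0.567 for Zap70 (0.00137) and 0.412 for Lat (0.00368). Cd8a differed by 0.04 (95% interval -0.17 to 0.25) and Cd8b1 by -0.12 (-0.32 to 0.08), Cd3d by 0.15 (-0.04 to 0.35), Cd247 by 0.22 (-0.05 to 0.50), Lck by 0.03 (-0.17 to 0.24) and Cd5 by 0.27 (-0.06 to 0.60). The median over the 10 genes was 0.25, against -0.00 over all genes tested. This comparison shares the CD-HFD CXCR6pos libraries with the CXCR6 contrast under CD-HFD.

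In CXCR6neg cells no member of the set passed between CD-HFD and ND, beside 0.47% of all genes tested, 0.292% higher and 0.178% lower, with 524 genes at an unadjusted p below 0.05, and DESeq2 called 0 members as well. Cd8a differed by -0.37 ± 0.11 (adjusted p = 0.136) and Cd5 by -0.51 ± 0.17 (0.194). Without ND CXCR6neg replicate 2, whose Cd8a level of 740.4 CPM was the lowest of its group, the Cd8a difference was -0.495 with an adjusted p of 0.0109, and without the library against its gate it was -0.270 with an adjusted p of 0.547. Cd3e differed by -0.03 (95% interval -0.23 to 0.17) and Cd3g by 0.03 (-0.18 to 0.25), intervals that end below the differences of these genes in CXCR6pos cells. The test of that difference between the fractions is the interaction given above. In spleen no member passed either, beside 0.0324% of all genes tested, 2 genes, 0.0162% higher and 0.0162% lower, with 274 at an unadjusted p below 0.05, and DESeq2 called 0 members. The members' log2 differences in spleen lay between -0.13 for Lck and 0.21 for Lat. Those of Cd3e and Cd3g were 0.05 (-0.13 to 0.24) and 0.09 (-0.11 to 0.28).

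Liver CXCR6pos cells under CD-HFD were also set against spleen cells under CD-HFD, where organ and gate differ together. Of the 10 genes 6 rose and none fell, beside 12.5% of genes tested that rose and 13.3% that fell, 25.7% in all. The log2 fold change was 1.07 ± 0.10 for Cd3g (adjusted p = 1.82e-16), 1.03 ± 0.09 for Cd3e (5.24e-17), 0.94 ± 0.13 for Zap70 (6.66e-10), 0.60 ± 0.10 for Lat (3.45e-07), 0.55 ± 0.11 for Cd8a (1.34e-05) and 0.35 ± 0.13 for Cd247 (0.0371). Every liver library was above every spleen library for all of these but Cd247, whose call held in 10 of 18 alternatives and failed in 8. It failed without CD-HFD CXCR6pos replicate 2 or 4 or CD-HFD spleen replicate 1, 2 or 6 (adjusted p up to 0.166), with no filter on low counts (0.272, adjusted p = 0.283), with DESeq2 (0.359, 0.0888) and with the block (0.327, 0.0647). Cd3d, Cd8b1, Lck and Cd5 differed by 0.03, 0.01, 0.09 and 0.09, with adjusted p-values of 0.588 or more.

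Under ND the CXCR6pos cells exceeded spleen for 4 of the 10 genes, beside 7.43% of genes tested that rose and 6.98% that fell, 14.4% in all. Cd8a rose by 0.50 ± 0.11 (adjusted p = 0.00018), Cd3g by 0.47 ± 0.10 (0.000334), Lat by 0.37 ± 0.10 (0.0051) and Cd3e by 0.35 ± 0.10 (0.00628), and in each case replicate 1 was the only ND CXCR6pos library within or below the spleen range. The Cd3e call was not made with no filter on low counts (adjusted p = 0.0709). Without the 2 ND libraries against their gate the log2 fold changes were 0.524 for Cd8a (adjusted p = 9.38e-05), 0.532 for Cd3g (4.43e-05), 0.412 for Lat (0.00233) and 0.406 for Cd3e (0.00165). Cd247, at 0.29 ± 0.13 (adjusted p = 0.149), passed when ND CXCR6pos replicate 3 was left out (0.391, adjusted p = 0.0415). The dependence of this contrast on diet passed for 3 genes, beside 1.21% of genes tested that were higher and 2.77% that were lower, 3.98% in all, at 0.68 ± 0.14 for Cd3e (adjusted p = 0.000341), 0.60 ± 0.14 for Cd3g (0.00448) and 0.74 ± 0.18 for Zap70 (0.00519). Without the 2 libraries these were 0.631 for Cd3e (adjusted p = 0.0012), 0.543 for Cd3g (0.0121) and 0.652 for Zap70 (0.0201), and with no filter on low counts Cd3g did not pass (0.529, adjusted p = 0.0615). For Cd8a the same interaction was 0.05 (95% interval -0.25 to 0.34), beside differences from spleen of 0.55 under CD-HFD and 0.50 under ND.

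Few of the 10 genes passed between CXCR6neg cells and spleen. Under CD-HFD no member passed, beside 10.4% of genes tested, 5.73% higher and 4.71% lower, with 1400 at an unadjusted p below 0.05, and DESeq2 called 1 member, Cd3e. Zap70 differed by 0.34 ± 0.12 (adjusted p = 0.0698) and Cd3e by 0.21 ± 0.09 (0.131). Zap70 passed without CD-HFD CXCR6neg replicate 6 (0.402, adjusted p = 0.0377) or CD-HFD spleen replicate 1 (0.429, 0.0204). Under ND Lat rose by 0.34 ± 0.11 (adjusted p = 0.0435), 1 of the 10 beside 4.73% of genes tested that rose and 2.14% that fell, 6.87% in all, and the groups did not overlap for Lat and Cd3e (0.30 ± 0.11, adjusted p = 0.0726). The Lat call held in 4 of 18 alternatives, and leaving out 8 of the 9 libraries of the 2 groups, one at a time, ended it, with adjusted p-values of up to 0.185. Without the 2 libraries against their gate, 1 of which is in this comparison, Lat was at 0.350 (adjusted p = 0.0666).

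The ratio of the counts of 2 chains within a library does not depend on scaling between libraries, and was taken for chains of the CD3 complex and of CD8. These ratios were chosen after the values were seen and are given as a description with no test. Cd3g over Cd3d was 1.3 to 1.81 in CD-HFD CXCR6pos libraries, against 0.5 to 1.19 in ND CXCR6pos, 0.744 to 0.887 in CD-HFD CXCR6neg, 0.66 to 0.934 in ND CXCR6neg, 0.622 to 0.804 in CD-HFD spleen and 0.612 to 0.753 in ND spleen. Cd3e over Cd3d was 1.11 to 1.35 in CD-HFD CXCR6pos libraries, against 0.5 to 0.973 in ND CXCR6pos, 0.678 to 0.872 in CD-HFD CXCR6neg, 0.725 to 0.908 in ND CXCR6neg, 0.602 to 0.678 in CD-HFD spleen and 0.556 to 0.636 in ND spleen. In both ratios the 5 CD-HFD CXCR6pos libraries were above all the others.

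Cd8a over Cd8b1 was 0.628 to 1.08 (median 0.709) in CD-HFD CXCR6pos libraries and 0.511 to 0.777 (median 0.706) in ND CXCR6pos libraries. It was 0.458 to 0.638 (median 0.488) in CD-HFD CXCR6neg and 0.437 to 0.688 (median 0.545) in ND CXCR6neg libraries. In spleen it was 0.433 to 0.592 (median 0.53) under CD-HFD and 0.464 to 0.544 (median 0.532) under ND. The CD8 ratio was thus near the same median in CXCR6pos cells of both diets, while neither CD3 ratio overlapped between the diets there. Cells can carry CD8 as a pair of alpha chains as well as an alpha and beta pair, and a ratio of RNA in bulk does not show which form is on the surface.

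**Figure D3:**
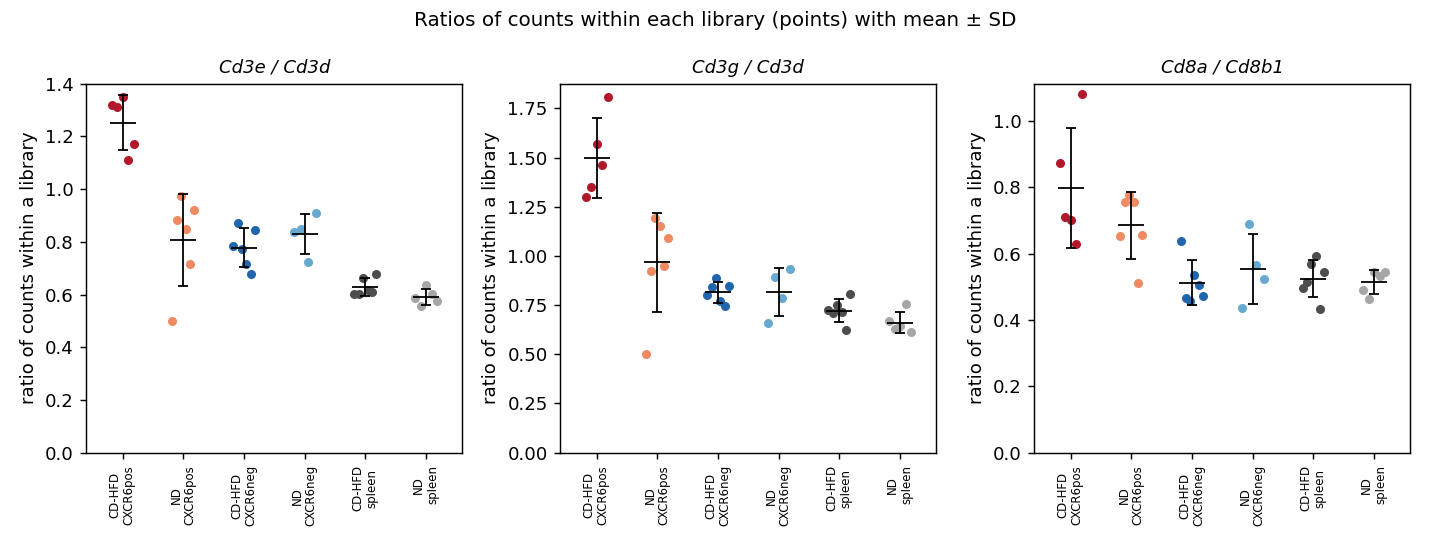
Ratio of counts within each library (vertical axes, linear, starting at 0) for Cd3e over Cd3d, Cd3g over Cd3d and Cd8a over Cd8b1, with points for libraries and bars for the mean and SD of each group. The 5 CD-HFD CXCR6pos libraries sit at 1.11 or more and 1.3 or more in the CD3 ratios, above all others, and both CXCR6pos groups have medians near 0.7 in the CD8 ratio.

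Other genes of the receptor pathway were taken from lists chosen by function. In CXCR6pos against CXCR6neg cells under CD-HFD, 2 of the 4 receptor chain and assembly genes rose, namely Trbc2 (0.59 ± 0.10, adjusted p = 4.77e-06) and Trac (0.63 ± 0.16, 0.00183), which encode constant regions of the beta and alpha chains. Trbc2 and Trbc1 are near-identical copies, so that their separate values are uncertain. Of 28 tested genes of kinases, adaptors and effectors downstream of the receptor, from a list of 32, 5 rose and 1 fell, beside 4.76% of all genes tested that rose and 6.38% that fell. Sh2d2a, an adaptor that binds LCK, rose by 1.62 ± 0.12 (adjusted p = 2.09e-22), the kinase gene Fyn by 1.00 ± 0.15 (2.95e-06) and Lcp2, which encodes the adaptor SLP-76, by 0.62 ± 0.13 (0.000329), and Themis rose by 0.70 ± 0.21 (0.0175). The 1 gene that fell, named after its value was seen, was the kinase gene Txk, by 0.62 on the log2 scale (0.0273). The median of the 28 was 0.06, against -0.00 over all genes tested.

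Of 22 tested negative regulators, from 27, 7 rose and 2 fell in the same comparison, beside the same shares of all genes. Lax1, an adaptor of the LAT type, rose by 1.37 ± 0.21 (adjusted p = 3.43e-06), Cish, an inhibitor of cytokine signalling, by 1.40 ± 0.27 (6.86e-05) and the adaptor gene Dok2 by 0.79 ± 0.16 (6.54e-05), while Dgka, which removes diacylglycerol, fell by 1.04 on the log2 scale (1.06e-07). Of 7 tested genes that receptor signalling induces, from 12, Nr4a2 rose by 1.71 ± 0.22 (4.45e-07) and Myc fell by 0.93 (0.00105). The higher Cd3e, Cd3g and Zap70 stood beside changes of both directions in the regulators and in the induced genes.

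With diet in CXCR6pos cells, 3 of the 4 chain and assembly genes rose, 4 of 28 downstream genes rose and 1 fell, and 4 of 22 negative regulators rose and 3 fell, beside 4.84% of all genes tested that rose and 6.45% that fell. Sh2d2a rose by 1.38 ± 0.12 (adjusted p = 2.04e-18), Fyn by 1.07 ± 0.15 (6.87e-07), the co-stimulatory receptor gene Cd28 by 0.87 ± 0.17 (3.5e-05) and Lax1 by 1.75 ± 0.21 (1.7e-08), while Tespa1 fell by 1.59 (6.48e-06) and Ptpn6, the gene of the phosphatase SHP-1, by 0.84 (1.53e-05). All 7 tested induced genes changed, 2 up and 5 down. Nr4a2 rose by 1.47 ± 0.21 (2.27e-06) and Tnfrsf9 by 2.80 ± 0.44 (7.44e-06), while Cd69 fell by 0.78 (8.48e-06) and Nfkbid by 1.30 (0.000139). Of these lists, none had a call with diet in CXCR6neg cells or in spleen, nor in CXCR6pos against CXCR6neg cells under ND.

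Of the 7 tested induced genes, 5 rose in CXCR6neg cells against spleen under CD-HFD and 5 under ND, with none called lower, beside 5.73% and 4.73% of all genes tested that rose. The others, named after their values were seen, were Myc, at -0.28 under CD-HFD (adjusted p = 0.281) and -0.25 under ND (0.512), and Tnfrsf9, at 1.04 (0.0622) and -0.07 (0.979). In CXCR6pos cells against spleen, 6 rose under CD-HFD and 1, Myc, fell by 1.21 (2.02e-07), beside 12.5% of all genes that rose and 13.3% that fell. Under ND 5 rose and none fell, beside 7.43% and 6.98%. Nr4a1, an immediate-early gene of receptor signalling, was 4.44 ± 0.27 higher on the log2 scale in CXCR6neg cells than in spleen under CD-HFD (adjusted p = 2.23e-13) and 4.35 ± 0.30 higher under ND (3.65e-12). The comparisons of CXCR6pos and of CXCR6neg cells with spleen share the spleen libraries of each diet.

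Under CD-HFD, markers of other cells moved with the CXCR6 gate. The 12 B cell genes summed to 336 to 537 CPM in CD-HFD CXCR6pos and 377 to 1995 CPM in ND CXCR6pos. They summed to 1595 to 1803 CPM in CD-HFD CXCR6neg and 1026 to 2207 CPM in ND CXCR6neg. In spleen the sums were 3929 to 7314 CPM under CD-HFD and 3330 to 5567 CPM under ND. Of these genes, Pax5 and Blk were at 0 in both CXCR6pos groups and Cd79a in both CXCR6neg groups. Ms4a1 and Blk were also at 0 in CD-HFD CXCR6neg. The other genes of the list had counts in the group concerned, Cd79a in both CXCR6pos groups and Cd79b in every liver group among them. Ighm averaged 92.968 CPM in CD-HFD CXCR6pos, 200.85 CPM in ND CXCR6pos, 325.75 CPM in CD-HFD CXCR6neg and 296.65 CPM in ND CXCR6neg. In CD-HFD CXCR6neg, Cd74 averaged 609 CPM and the class II genes H2-Ab1, H2-Aa and H2-Eb1 averaged 403, 242 and 93.2 CPM. Cd79b averaged 24.0 CPM there. The sum thus rests mostly on Cd74, the class II genes and Ighm, and which cells these came from was not tested. The 11 plasmacytoid dendritic cell genes summed to 124 to 249 CPM in CD-HFD CXCR6pos, 98.5 to 1177 CPM in ND CXCR6pos, 947 to 1532 CPM in CD-HFD CXCR6neg, 611 to 1239.8 CPM in ND CXCR6neg, 292 to 500.2 CPM in CD-HFD spleen and 307 to 359 CPM in ND spleen, with Ccr9 and Spib at 0 in CD-HFD CXCR6pos. In CXCR6pos against CXCR6neg cells under CD-HFD, all 9 tested genes of that list fell, as did 4 of 6 tested B cell genes and 2 of 3 tested NK cell genes. Of all genes tested, 6.38% fell there. Under ND none of the 6 B cell, 9 plasmacytoid, 3 NK cell and 5 gamma-delta and CD4 T cell genes tested passed in that contrast, beside 0.0324% of all genes tested. Their median log2 fold changes were -0.85, -1.58, -0.47 and 0.68 in that order. The highest B cell and plasmacytoid sums of the ND CXCR6pos group were both in replicate 6. Its other libraries had plasmacytoid sums of 98.5 to 209 CPM, below all ND CXCR6neg libraries. Tests of these lists without the 2 libraries against their gate are not given. The part of these cells in the differences of the 10 genes was not tested. Of T cell genes in the CD-HFD contrast, Cd3d, Cd8b1 and Lck, at 0.14, 0.16 and 0.21, did not pass, nor did Cd247 and Cd5. Cd3g, at 0.99, passed, as did Cd3e, Cd8a, Zap70, Lat, Trac and Trbc2.

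The NK cell list, 6 genes, summed to 20.3 to 124 CPM in CD-HFD CXCR6pos, 98.5 to 415 CPM in ND CXCR6pos, 469 to 553 CPM in CD-HFD CXCR6neg, 242 to 546 CPM in ND CXCR6neg and 138 to 196 CPM over both spleen groups, with Ncr1 at 0 in 5 of the 6 groups. Its tested genes Tyrobp, Fcer1g and Klrb1c averaged 366, 121 and 26.1 CPM in CD-HFD CXCR6neg cells. In CD-HFD CXCR6pos cells they averaged 28.7, 22.1 and 13.8 CPM. The sum thus rests mostly on Tyrobp and Fcer1g in CXCR6neg cells, and which cells these came from was not tested. The gamma-delta and CD4 T cell list, 8 genes, summed to 459.8 to 1329 CPM in CD-HFD CXCR6pos, 159 to 638 CPM in ND CXCR6pos, 157 to 276 CPM in CD-HFD CXCR6neg, 191 to 321 CPM in ND CXCR6neg, 178 to 349.7 CPM in CD-HFD spleen and 121 to 307 CPM in ND spleen. Of its 5 tested genes, 3 rose in CXCR6pos against CXCR6neg cells under CD-HFD (Tcrg-C4, Tcrg-C2 and Izumo1r), beside 4.76% of all genes tested. Tcrg-C2 averaged 549 CPM in CXCR6pos and 101 CPM in CXCR6neg cells there. Trdc, the delta constant gene, averaged 2.36 and 13.0 CPM and was not called. With diet in CXCR6pos cells Tcrg-C4, Tcrg-C2 and Izumo1r rose and Trdc and Tcrg-C1 fell, beside 4.84% of all genes tested that rose and 6.45% that fell. The Tcrg-C genes are close copies whose separate values are uncertain. Beside the same shares, all 3 tested NK genes fell with diet in CXCR6pos cells. No B cell or plasmacytoid gene passed there. The median log2 fold change of the 6 B cell genes was -0.90. The plasmacytoid gene Siglech averaged 2.49 CPM under CD-HFD and 24.1 CPM under ND (log2 fold change -3.86 ± 1.49, adjusted p = 0.106), and Spib and Ccr9, at 0 under CD-HFD, averaged 13.1 and 7.49 CPM under ND (adjusted p = 0.0861 and 0.0871). The diet differences of Cd3e, Cd3g, Zap70 and Lat without replicate 6, the ND library highest in these sums, and the other library against its gate are those given above. Sums of the Kupffer cell and macrophage list reached 23.6 CPM in liver and 115 CPM in spleen, those of the neutrophil list 3.14 CPM, and those of the hepatocyte list 246 CPM, in ND CXCR6pos replicate 1, where that is 5 counts of 49.2 CPM each.

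**Figure D4:**
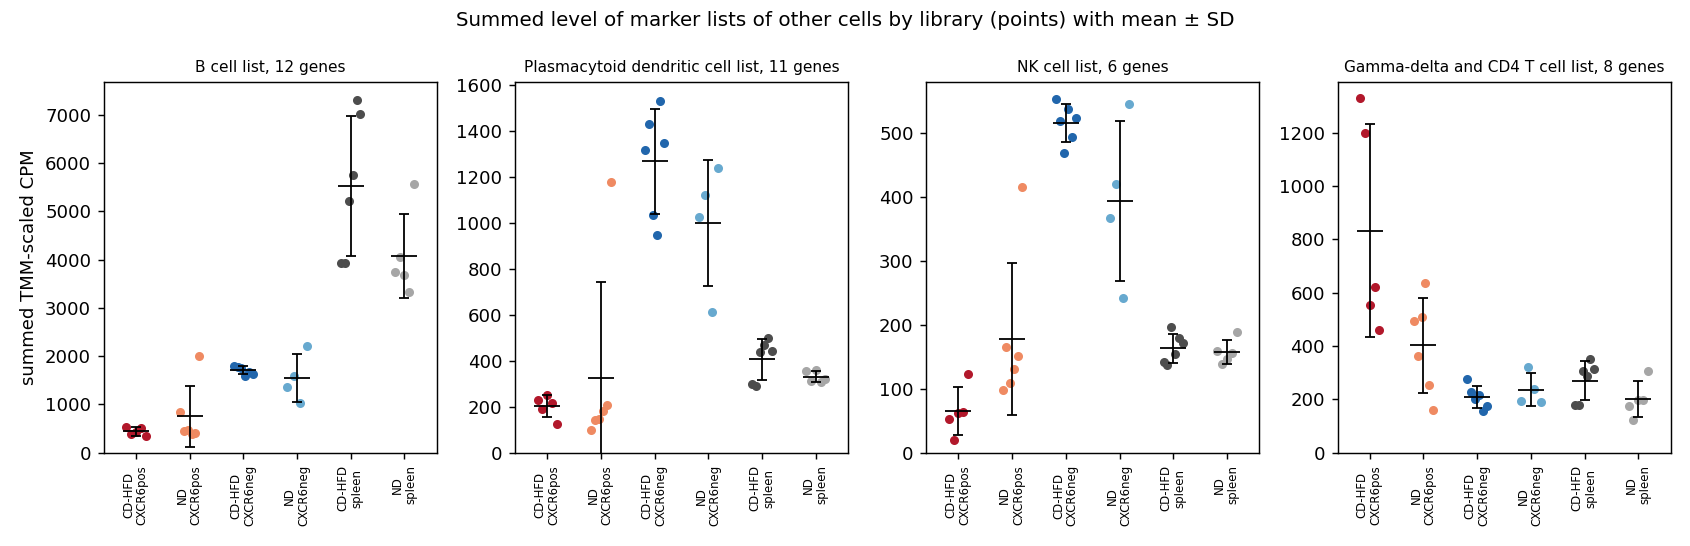
Summed TMM-scaled CPM (vertical axes, linear, starting at 0) of 4 marker lists in each library (points), with the mean and SD of each group (bars). B cell, plasmacytoid dendritic cell and NK cell sums are lower in CD-HFD CXCR6pos than in CD-HFD CXCR6neg libraries with no overlap, and ND CXCR6pos replicate 6 is the highest of its group in the 3 lists, at 1995, 1177 and 415 CPM.

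Across the 32 libraries Cd3e varied with Cd3g, Lat and Zap70, and little with Cd3d. Pearson's r of log2 CPM, a description over libraries that share groups and differ in depth, was 0.92 between Cd3e and Cd3g, 0.89 between Cd3e and Lat, 0.80 between Cd3e and Zap70 and 0.78 between Cd3g and Cd8a. It was 0.11 between Cd3e and Cd3d, 0.19 between Cd3g and Cd3d and 0.48 between Cd8a and Cd8b1. Lck and Cd5 had r of 0.76, and Cd8b1 had r of 0.61 with Cd5 and 0.54 with Lck. In ND CXCR6pos replicate 1, the shallowest library, Cd5 was at 0 and Lck at 689 CPM, the lowest of all libraries for both. How far these r rest on that library was not tested.

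Of all other genes tested, those whose log2 CPM was most like the mean of Cd3d, Cd3e and Cd3g over the 32 libraries were Nkg7 (r = 0.93), Adgrg1 (0.93), Chn2 (0.89), Osgin1 (0.89) and Cd82 (0.87), which fell to 0.74, 0.61, 0.66, 0.61 and 0.69 once group means were taken out. Since Cd3d was nearly level over the groups, this mean follows mainly Cd3e and Cd3g. Nkg7, a gene of cytotoxic granules, averaged 8094 ± 509 CPM in CD-HFD CXCR6pos and 4318 ± 692 CPM in ND CXCR6pos cells, 4453 ± 326 CPM in CD-HFD CXCR6neg and 3713 ± 519 CPM in ND CXCR6neg cells, and 3606 ± 459 CPM in CD-HFD spleen and 3139 ± 100.3 CPM in ND spleen (SD). Adgrg1 averaged 121 ± 36.9 CPM in CD-HFD CXCR6pos cells and 7.81 CPM or less in the other groups. The genes most like Cd8b1 were Aldh9a1 (r = 0.79, and 0.81 within groups), Cd52 (0.78 and 0.88) and Sh3bgrl3 (0.76 and 0.87). Cd8b1, Cd52 and Sh3bgrl3 had their largest SDs in ND CXCR6pos cells, at 507, 797 and 373 CPM. That group holds the shallowest library, and how far these r rest on it was not tested. Cd52, a small surface protein of lymphocytes, averaged 3099 ± 278 CPM in CD-HFD CXCR6pos cells and 3086 ± 797 CPM in ND CXCR6pos cells, 2205 ± 186 CPM in CD-HFD CXCR6neg and 2560 ± 508 CPM in ND CXCR6neg cells, and 3010.5 ± 347 CPM in CD-HFD spleen and 3011 ± 51.0 CPM in ND spleen (SD).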

How the data were processed

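Bulk 3′ RNA-seq of sorted CD8 T cells was read from the authors' deposited table of raw counts per gene, whole numbers with no normalization. Per the labels' protocols, cells were sorted into lysis buffer, cDNA was primed with barcoded oligo-dT carrying molecular identifiers, and pools were sequenced on a NextSeq 500. The submitters' processing notes name GRCm38.p6 and DESeq2 1.14.1. For aligner, counter, use of strand and collapsing of identifiers the answer is not given in the sources used here. Of 35 value columns 34 matched a sample by name, 1 matched none and was not used, and 1 labelled sample was not analysed here. It is replicate 6 of the liver CXCR6pos cells under CD-HFD, a group that therefore has 5 libraries. The 2 libraries named ND liver CXCR6neg replicate 1 and ND spleen CX3CR1neg replicate 6 held identical values in all genes and were left out, which left 32 libraries.

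Genes were filtered by filterByExpr over the 6 groups, which left 6174 genes, all 10 members among them. They were scaled by TMM and tested by edgeR's quasi-likelihood test (edgeR 4.0.16, R 4.3.3) with 1 coefficient per group over all 32 libraries and a Benjamini-Hochberg threshold of 0.05 over all genes tested. Diet dependence was the difference of 2 log2 fold changes in that fit. Standard errors are the log2 fold change divided by the square root of F, and intervals are normal ones at the 95% level. The scripts were tested on simulated data. Outside the 10 members, up to 4 genes per list with the smallest p are named, and the genes most like the CD3 mean and Cd8b1 leave out predicted models. Members and lists were chosen with earlier results of these data known. Alternatives were RLE scaling, total counts only, no filter on low counts, only the groups compared, a block for the replicate number, the shared library kept in liver or in spleen, the 2 low-depth libraries left out, 2 ND libraries against their gate left out, DESeq2 1.42.0, and each library left out in turn. Same-numbered libraries had correlations of their deviations between -0.06 and 0.08. That range includes comparisons between diets, and it does not show whether same-numbered libraries share an animal. Promoter windows are RefSeq's on GRCm38.p6.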

Additional observations from a re-analysis of the deposited data

Results flagged for a closer look

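Of 60 checks of a member within a group of 4 to 6 libraries, 7 found a library far from the others, and chance flags about 1 in 20 groups. The checks are not independent, since 3 of the 7 were in 1 library. In ND CXCR6pos replicate 1, the shallowest library, Cd8a was at 739 CPM where the next was 1366, Lck at 689 CPM where the next was 1494, and Cd5 at 0 where the next was 128. That library also had the highest TMM factor, 1.371, which lowers its scaled values. In CD-HFD CXCR6pos replicate 5, the other library of low depth, Lck was at 2016 CPM where the next was 1536. In CD-HFD CXCR6neg replicate 1, Cd8a was at 1050.4 CPM where the next was 864. In ND CXCR6neg replicate 4, which went against its gate, Cd5 was at 166 CPM where the next was 230.2. In CD-HFD spleen replicate 6, Cd5 was at 207 CPM where the next was 173.

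The response to diet differed between fractions, by the interaction in edgeR's fit, for 3 members. For Cd3e the difference on the log2 scale was 0.76 between CXCR6pos and CXCR6neg cells and 0.68 between CXCR6pos cells and spleen. For Cd3g it was 0.65 and 0.60, and for Zap70 it was 0.74 between CXCR6pos cells and spleen. The Cd3g calls were lost in 2 of 30 alternatives (adjusted p up to 0.0795) and 1 of 31 (0.0615), given beside those results above. The pairs of interactions share the CXCR6pos libraries of both diets.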

How the results depend on the processing

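Of 110 member log2 fold changes, 2270 values under alternatives were computed, and the member calls of CXCR6pos against CXCR6neg cells under CD-HFD (5 genes) and of diet in CXCR6pos cells (4 genes) held in all 18 and all 19 of theirs. Genes called between CXCR6pos and CXCR6neg cells under ND were 2, and became 18 with no filter on low counts, 75 with a replicate block, 14 with the shared library kept in the liver, 90 without the 2 ND libraries against their gate, and 0 with RLE scaling, only the groups compared, total counts only, low-depth libraries left out or DESeq2, with 1 member, Cd3g, called under the block and without the 2 libraries. Diet gave 418 genes with the block in place of 697 in CXCR6pos cells. In CXCR6neg cells diet gave 47 with only the groups compared, 53 with the shared library in the liver and 9 without the 2 libraries, in place of 29. In spleen it gave 8 with no filter, 4 with only the groups compared and 12 with the block, in place of 2. CXCR6pos cells against spleen under ND gave 575 with the block in place of 890, and CXCR6neg cells against spleen under ND 245 with the shared library in the liver in place of 424. In CXCR6neg cells against spleen, members under CD-HFD were 2 with only the groups compared, 2 with the block and 1 with DESeq2 in place of 0, and under ND 0 with no filter, the block, the shared library kept in either organ or the 2 libraries left out, and 2 with total counts only, in place of 1. The diet dependence of the CXCR6 contrast gave 53 genes without the 2 libraries in place of 89, and 1 member (Cd3e) with the block or without the 2 libraries in place of 2. The replicate block changed no other member call than these and Cd247 in CXCR6pos cells against spleen under CD-HFD (0.327, adjusted p = 0.0647). The cause of these changes was not tested.

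With 1 library left out at a time, genes called ran between 0 and 58 (CXCR6 contrast under ND), 561 and 660 (under CD-HFD), 559 and 729 (diet in CXCR6pos), 8 and 45 (diet in CXCR6neg), 1 and 5 (diet in spleen), 1291 and 1561 and 735 and 906 (CXCR6pos against spleen under CD-HFD and ND), 495 and 646 and 321 and 432 (CXCR6neg against spleen under CD-HFD and ND), and 67 and 109 and 188 and 259 (diet dependence against CXCR6neg and against spleen). The 58 genes came without ND CXCR6pos replicate 6, and the 8 and 45 without ND CXCR6neg replicate 4 and replicate 2. Members called ran between 0 and 1 for diet in CXCR6neg cells and for CXCR6neg cells against spleen under each diet, 5 and 6 and 4 and 5 for CXCR6pos cells against spleen under CD-HFD and ND, and 2 and 4 for the diet dependence against CXCR6neg.

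Signs changed only for values near 0 that had passed no test. With no filter these were Cd8a -0.006 and Lck -0.012 (diet in CXCR6pos), Cd8a 0.018 (diet in spleen), Cd3d -0.046 and Cd8b1 -0.072 (CXCR6pos against spleen under CD-HFD), and Cd247 -0.008 and Cd8a -0.024 (diet dependence against spleen). With the block Cd247 was -0.080 in the CXCR6 contrast under ND. With the shared library in the liver Cd3e was 0.035 and Lat 0.015 for diet in CXCR6neg. Without the low-depth libraries Cd8a was -0.050 and Lck -0.096 for diet in CXCR6pos and Cd8a -0.044 for the diet dependence against spleen. Without the 2 libraries against their gate Cd247 was -0.024 (CXCR6 contrast under ND), Cd8b1 -0.015 and Zap70 -0.034 (CXCR6neg against spleen under ND) and Cd3d -0.046 (diet dependence against CXCR6neg). With 1 library left out, 19 member values changed sign, with these lowest and highest values. For the CXCR6 contrast under ND this was Cd247 between -0.052 and 0.131, Cd3d between -0.019 and 0.103, Cd8b1 between -0.055 and 0.109, Lat between -0.027 and 0.082 and Lck between -0.010 and 0.093. For the diet dependence against CXCR6neg this was Cd247 between -0.010 and 0.213. For the diet dependence against spleen this was Cd247 between -0.028 and 0.152, Cd8a between -0.000 and 0.115 and Cd8b1 between -0.134 and 0.026. For diet in CXCR6neg cells this was Cd3g between -0.048 and 0.095 and Lat between -0.074 and 0.037. For CXCR6pos against spleen under CD-HFD this was Cd5 between -0.011 and 0.145 and Cd8b1 between -0.036 and 0.055. For diet in CXCR6pos cells this was Cd8a between -0.002 and 0.109 and Lck between -0.040 and 0.073. For diet in spleen this was Cd8a between -0.037 and 0.023. For CXCR6neg against spleen under ND this was Cd8b1 between -0.023 and 0.130 and Zap70 between -0.043 and 0.137. For CXCR6pos against spleen under ND this was Cd8b1 between -0.003 and 0.143.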
